A study of Mus musculus with 4 samples.

Results

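The genes of glycolysis and of the response to low oxygen were examined in RNA sequencing libraries from cultured mouse cells. The set was chosen by name from glucose uptake, the glycolytic enzymes and targets of the hypoxia-inducible factor HIF, and comprised 35 genes on 36 of the 55401 rows of the deposited gene table, since Aldoa stood on 2 rows. The cultures received daidzein, a soy isoflavone, in 2 libraries, and the solvent DMSO in 2 others. The labels describe all 4 as female germline stem cells from the ovary of C57BL/6 mice in normal condition, and all grew in MEM-alpha with serum and the factors LIF, GDNF, bFGF and EGF. The labels mention several concentrations of daidzein without saying which these libraries received, and the sources used here give neither its duration, the age of the animals nor the number of cell lines. No label says whether replicates were separate cultures. The p-values thus cover the variation among these 4 libraries alone, and it may be technical.

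The deposited read counts summed to 17192077 and 18537134 in the daidzein libraries and to 16230400 and 17119625 in the DMSO libraries. Of 6 defining germ line genes, Ddx4, Dazl, Dppa3, Prdm1, Pou5f1 and Ifitm3 each had 0 to 4 reads in every library, and of 6 ovarian somatic and stromal genes, Amh had the most reads, 19 to 34 per library. Of 6 blood and mast cell genes, Cpa3, Gata2, Kit, Adgre1 and Ptprc stood between 8.72 and 509 FPKM (the read count scaled by gene length and by the library total), while Fcer1a had 0 reads. The labelled cell type therefore lacked its defining transcripts in all 4 libraries. In bulk RNA, fewer cells of a type and less RNA per cell cannot be told apart.

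Glycolysis splits glucose into pyruvate in the cytosol, and most of its steps are served by several isozymes encoded by separate genes. Under low oxygen, prolyl hydroxylases no longer mark HIF1A protein for destruction, and HIF then raises transcription of glucose transporters, glycolytic enzymes, lactate dehydrogenase and a set of genes for angiogenesis, pH control and mitophagy. HIF acts mainly through the stability of its protein, which transcript counts do not measure. Proliferating cells and activated immune cells are known for high glycolysis also in the presence of oxygen.

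HIF binds short sites whose core is most often ACGTG and in other cases has a first base that turns it into GCGTG, so the start regions of the genes were read in RefSeq promoter windows of GRCm38.p6, each 250 bases before to 50 bases after an annotated start. Of the 35 genes, 33 matched the table by symbol, with 47 windows, and Ndrg1 and Slc2a3 did not. ACGTG, read on both strands, was found in at least 1 window of 24 of the 33 genes, or 72.7%, against 30.8% of the 8680 tested genes with a window. GCGTG was found for 21 of the 33, or 63.6%, against 57.6% of the tested genes. Per window the shares were 57.4% of 47 and 26.6% of 11088 for ACGTG, at a median GC content of 62.0% and 61.0%. These are shares of letters with no test, the genes include known HIF targets by choice, and windows of 1 gene can overlap. The 3 windows shown are those of Ldha, which had the highest level of the 35 genes, of Pgk1, a long-known HIF target, and of Hk2, which had the smallest p-value between the groups. They are written 5′ to 3′ on the strand of the gene, with matches to either core on either strand in capitals. The Ldha window lies at chr7:46845554-46845853 on the plus strand, the Pgk1 window at chrX:106186850-106187149 on the plus strand and the Hk2 window at chr6:82774405-82774704 on the minus strand.
Ldha: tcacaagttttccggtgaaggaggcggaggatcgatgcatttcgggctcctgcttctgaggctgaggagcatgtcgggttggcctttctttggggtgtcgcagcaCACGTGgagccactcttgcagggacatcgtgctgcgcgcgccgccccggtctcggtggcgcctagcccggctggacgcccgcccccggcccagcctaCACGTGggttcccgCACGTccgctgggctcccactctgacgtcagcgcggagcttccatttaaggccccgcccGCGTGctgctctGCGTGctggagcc
Pgk1: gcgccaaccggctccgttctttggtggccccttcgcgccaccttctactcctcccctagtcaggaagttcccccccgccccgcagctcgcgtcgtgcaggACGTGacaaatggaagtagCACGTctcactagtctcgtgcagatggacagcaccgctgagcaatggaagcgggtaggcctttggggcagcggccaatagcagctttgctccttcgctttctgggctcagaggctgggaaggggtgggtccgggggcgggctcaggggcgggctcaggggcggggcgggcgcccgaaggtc
Hk2: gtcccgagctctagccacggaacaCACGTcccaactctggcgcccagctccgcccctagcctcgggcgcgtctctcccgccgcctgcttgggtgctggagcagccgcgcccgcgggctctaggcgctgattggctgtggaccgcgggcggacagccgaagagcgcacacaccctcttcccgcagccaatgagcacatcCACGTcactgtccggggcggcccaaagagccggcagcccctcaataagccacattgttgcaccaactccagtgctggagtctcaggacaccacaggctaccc
The Ldha window held 5 matches to ACGTG and 2 to GCGTG, where a palindromic CACGTG counts as 2 overlapping matches, and the Pgk1 and Hk2 windows held 2 matches to ACGTG each. Ldha had another window, at chr7:46846832-46847131, with 0 matches to ACGTG and 2 to GCGTG. The window shown is the one nearest the deposited start of the gene.

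The cells expressed a near-complete glycolytic pathway at high levels, ending in lactate dehydrogenase A. On the FPKM scale, which divides by gene length, the order from the top was Ldha, Pkm, Aldoa, Tpi1 and Pgk1. This order counts reads on each gene's own row only, and near-identical copies, described below for Gapdh and Eno1, are not in it. Ldha (ENSMUSG00000063229; GRCm38 chromosome 7, 46841475 to 46855627, plus strand), which reduces pyruvate to lactate, had 874 and 851 FPKM in the daidzein libraries and 888 and 867 FPKM in the DMSO libraries. Pkm, the pyruvate kinase of most growing tissues, had 541 and 537 FPKM with daidzein and 576 and 540 FPKM with DMSO. Aldoa, the aldolase that cleaves fructose 1,6-bisphosphate, had 416 and 406 FPKM with daidzein and 436 and 415 FPKM with DMSO. The levels of these 3 genes lay far apart, while the groups overlapped within each gene. Tpi1, triose phosphate isomerase, followed at 308 to 333 FPKM over the 4 libraries. Pgk1, phosphoglycerate kinase, stood at 93.0 to 99.1, Eno1, enolase 1, at 80.2 to 89.8, and Gpi1, glucose 6-phosphate isomerase, at 83.8 to 86.4 FPKM. The ranges of Eno1 and Gpi1 overlapped, so their order is not resolved, and the same held for Hk1 (60.9 to 63.4 FPKM) and Pfkl (58.5 to 63.4 FPKM), which carry out the first and the third step. Together the 36 rows took 1.217% and 1.195% of counts with daidzein and 1.26% and 1.209% with DMSO.

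**Figure D1:**
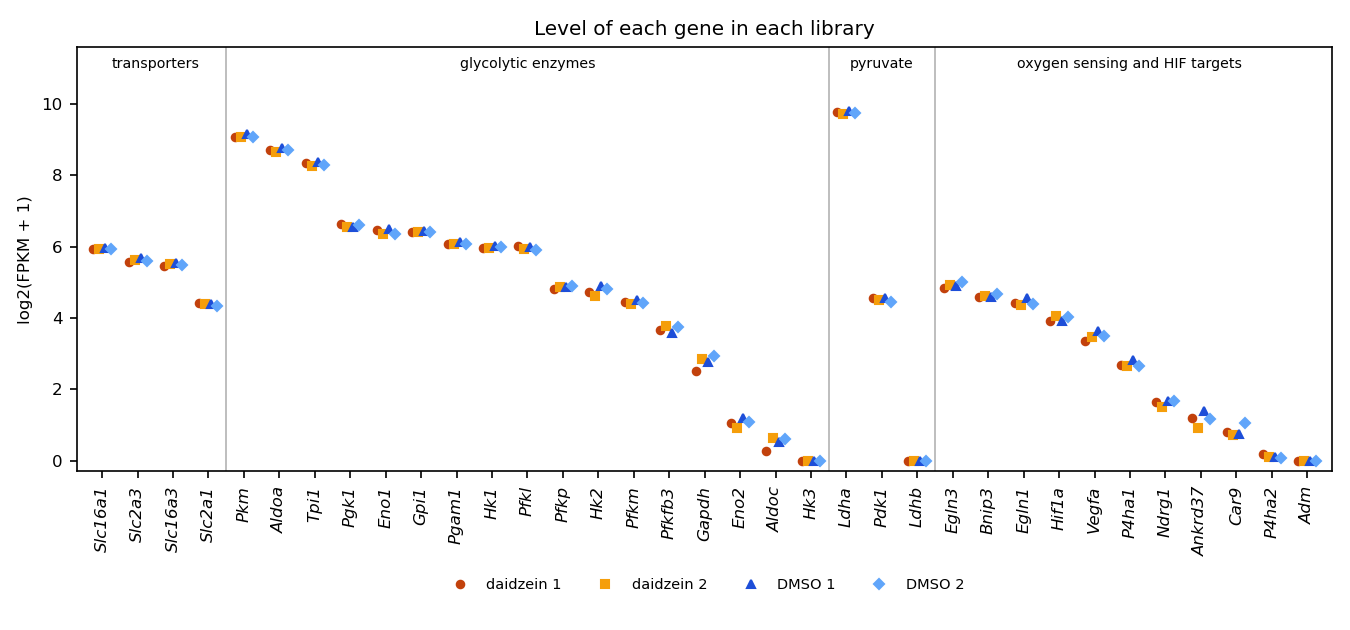
Each point is the log2(FPKM + 1) of 1 gene in 1 of 4 libraries, with daidzein libraries in orange tones and DMSO libraries in blue, grouped by role and sorted by mean level within a role. Ldha, Pkm, Aldoa and Tpi1 stood above 300 FPKM, Hk3, Ldhb and Adm had 0 reads, and the 4 libraries lay close together for most genes.

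Gapdh, glyceraldehyde 3-phosphate dehydrogenase and a common reference gene, was an exception in the table, with only 4.69 and 6.28 FPKM in the daidzein libraries and 5.86 and 6.66 FPKM in the DMSO libraries. Nearly all reads with its sequence were listed under copies. A search of GENCODE M21 transcripts with at least 95% identity over at least 0.5 of the coding sequence found 74 copies of Gapdh, of which 59 had a read. The processed pseudogene Gm13394 (GRCm38 chromosome 2, 28933610 to 28934609, minus strand) alone had 23434 and 24691 reads with daidzein and 22899 and 23019 reads with DMSO. Gapdh itself had 333 and 481 reads with daidzein and 393 and 471 reads with DMSO. The copies held 98.6% and 98.1% of the reads of gene and copies with daidzein and 98.3% and 98.0% with DMSO. Over the 999 aligned bases of the longest annotated Gapdh coding sequence (1077 bases), the pseudogene differed by 1 substitution, A424C, counted from 1 at the first coding base of Gapdh. The stretch around it, coding positions 379 to 469, shows how little separates the loci. It spans 2 exons of Gapdh at chr6:125162971-125163159 and lies unbroken in Gm13394 at chr2:28934219-28934309, both on the minus strand of GRCm38, and the base that differs is in capitals.
Gapdh: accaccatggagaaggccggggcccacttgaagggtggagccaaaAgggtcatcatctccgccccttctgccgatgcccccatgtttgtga
Gm13394: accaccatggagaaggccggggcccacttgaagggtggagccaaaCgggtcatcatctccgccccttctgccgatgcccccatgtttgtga
At 1332 to 1411 FPKM over the libraries, Gm13394 was listed above Ldha. Its gene length in the table is 1000 bases, against 4133 for Gapdh, so these levels also differ by the length used. From which locus the transcripts came was not tested.

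Eno1 was split in the same way. Eno1 had 8161 and 7999 reads with daidzein and 7839 and 7508 with DMSO, while 3 copies together had 16934 and 17854 reads with daidzein and 17263 and 16679 with DMSO. Most of these lay on Eno1b, annotated as protein-coding, with 10040 to 11021 reads per library, and on the processed pseudogene Gm4735 (GRCm38 chromosome 2, 80837141 to 80838442, plus strand), with 6633 to 6818. Gm4735 carries 5 substitutions over the 1302 coding bases of Eno1, of which T726C and T816G fall in coding positions 681 to 845, at chr4:150246583-150246747 in Eno1 and chr2:80837821-80837985 in Gm4735, both on the plus strand.
Eno1: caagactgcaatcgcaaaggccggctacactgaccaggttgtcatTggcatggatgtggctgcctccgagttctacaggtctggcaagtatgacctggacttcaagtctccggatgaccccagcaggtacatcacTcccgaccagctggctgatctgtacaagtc
Gm4735: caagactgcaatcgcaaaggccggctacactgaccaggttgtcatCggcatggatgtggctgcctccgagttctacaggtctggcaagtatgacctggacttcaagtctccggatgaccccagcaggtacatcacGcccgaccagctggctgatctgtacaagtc
Copies took 6.87% to 7.33% of such reads for Gpi1, 1.81% to 3.495% for Pgam1 and 1.67% to 2.57% for Pgk1, and at most 0.818% for Pkm, Ldha and Bnip3. The levels of Gapdh and Eno1 are therefore uncertain. For Pgk1 and Pgam1 the small share does not settle the level either. The copies Pgk1-rs7 and Pgam1-ps2 matched them at 100% identity over at least 99.92% of the coding sequence. Reads from there cannot be told apart by their bases.

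**Figure D2:**
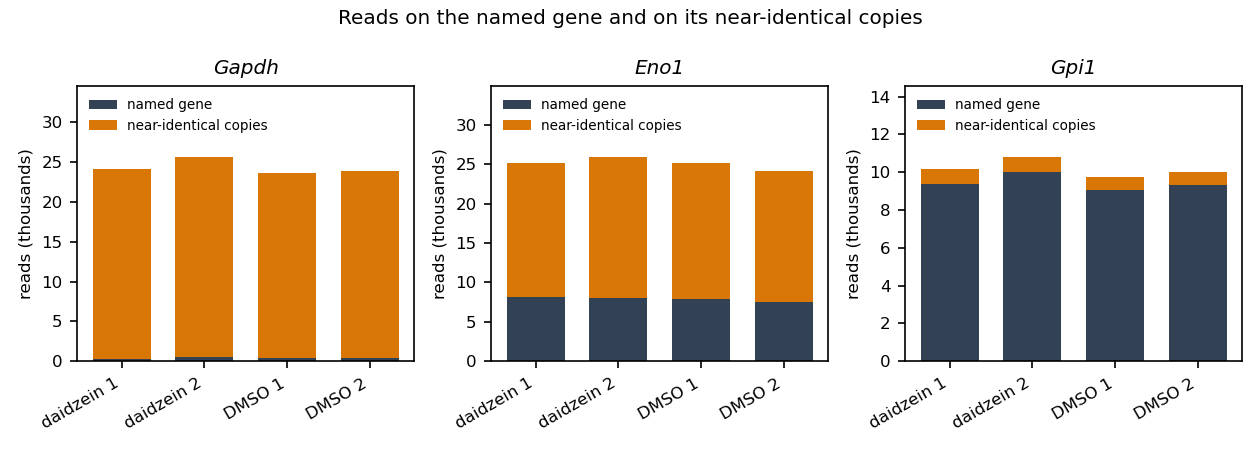
Bars give reads per library, in units of 1000, on the named gene (dark) and on its near-identical copies (orange) for Gapdh, Eno1 and Gpi1. Copies held over 98% of Gapdh reads, 67.5% to 69.1% of Eno1 reads and about 7% of Gpi1 reads in each of the 4 libraries.

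Isozyme use was compared as the share of each gene in the summed FPKM of the related genes of the set, so relatives outside the set do not enter the sum. Hk1, the hexokinase of most tissues, made up 70.6% and 72.1% of the FPKM of Hk1, Hk2 and Hk3 with daidzein and 68.8% and 69.5% with DMSO. Hk2, the hexokinase induced by insulin and HIF, made up the rest, since Hk3, a hexokinase of myeloid cells, had 0 reads in every library. The share of Hk1 was 71.3% ± 1.11 with daidzein and 69.2% ± 0.468 with DMSO (SD, n = 2 each), and the 2 groups did not overlap. This was not particular to hexokinase. The groups did not overlap either in the shares of Slc2a3, Eno1, P4ha1 and Pfkm, nor, by a narrow margin, of Pfkl. Of these, the P4ha1 share turned on 5 to 15 reads of P4ha2 per library, and the Eno1 share left out the copies of Eno1. The shares are a description with no test, and an exact permutation test of 2 against 2 libraries cannot go below a two-sided p of 0.33.

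All 3 phosphofructokinase genes, which commit sugar to glycolysis, were expressed. The liver form Pfkl led with 56.3% ± 0.848 of their summed FPKM under daidzein and 55.0% ± 0.876 under DMSO (SD, n = 2 each). The platelet form Pfkp held 25.1% ± 0.956 with daidzein and 25.8% ± 0.942 with DMSO, and the muscle form Pfkm 18.6% ± 0.108 with daidzein and 19.2% ± 0.0658 with DMSO. Pfkl had 63.4 and 60.4 FPKM with daidzein and 62.7 and 58.5 FPKM with DMSO, and its groups overlapped. The muscle share lay lower in both daidzein libraries than in both DMSO libraries, a difference of -0.560 percentage points between the means. Pfkfb3, which makes the activator fructose 2,6-bisphosphate, stood at 10.9 to 12.6 FPKM over the 4 libraries.

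In 4 groups of related genes, 1 gene of the set held nearly everything. Aldoa held 99.9% of the FPKM of Aldoa and Aldoc in both groups, and Aldoc, the brain form, had 11 to 33 reads per library. Eno1 held 98.8% ± 0.0954 of the FPKM of Eno1 and Eno2 with daidzein and 98.6% ± 0.0425 with DMSO, without its copies. Eno2, the neuronal form, held the rest of that sum, while Eno3, the muscle enolase, which is outside the set, stood higher than Eno2 at 7.06 to 8.26 FPKM. Ldha held all of the FPKM of Ldha and Ldhb, as Ldhb, the heart form, had 0 reads. A count of 0 allows up to 3 reads, or per library 0.162 to 0.185 CPM, the count over the library size, for counting error only. P4ha1, a catalytic subunit of collagen prolyl 4-hydroxylase, held 98.1% ± 0.856 with daidzein and 99.0% ± 0.145 with DMSO, and P4ha2, a second such subunit, had 15 and 8 reads with daidzein and 7 and 5 with DMSO.

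Transcripts of carriers for glucose and for lactate were present. Slc2a3, the high-affinity glucose transporter GLUT3, had 46.3 and 48.3 FPKM with daidzein and 50.8 and 47.4 FPKM with DMSO. Slc2a1, the widespread glucose transporter GLUT1, had 20.2 and 20.2 FPKM with daidzein and 20.0 and 19.3 FPKM with DMSO. The GLUT3 gene thus held 70.1% ± 0.673 of this pair with daidzein and 71.4% ± 0.507 with DMSO (SD, n = 2 each). Slc2a6, another glucose transporter gene, which is outside the set, stood at 13.4 to 14.8 FPKM. Slc16a1, which encodes the lactate and pyruvate carrier MCT1, had 59.99 and 60.22 FPKM with daidzein and 61.0 and 59.8 FPKM with DMSO. Slc16a3, which encodes the lactate exporter MCT4, stood at 43.2 to 45.5 FPKM, so MCT1 held 57.8% ± 0.496 of this pair with daidzein and 57.5% ± 0.387 with DMSO. Egln3, a HIF prolyl hydroxylase that HIF itself induces, had 27.9 and 29.1 FPKM with daidzein and 28.9 and 31.3 FPKM with DMSO. Egln1, the main HIF prolyl hydroxylase, had 20.4 and 19.7 FPKM with daidzein and 22.8 and 20.1 FPKM with DMSO.

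**Figure D3:**
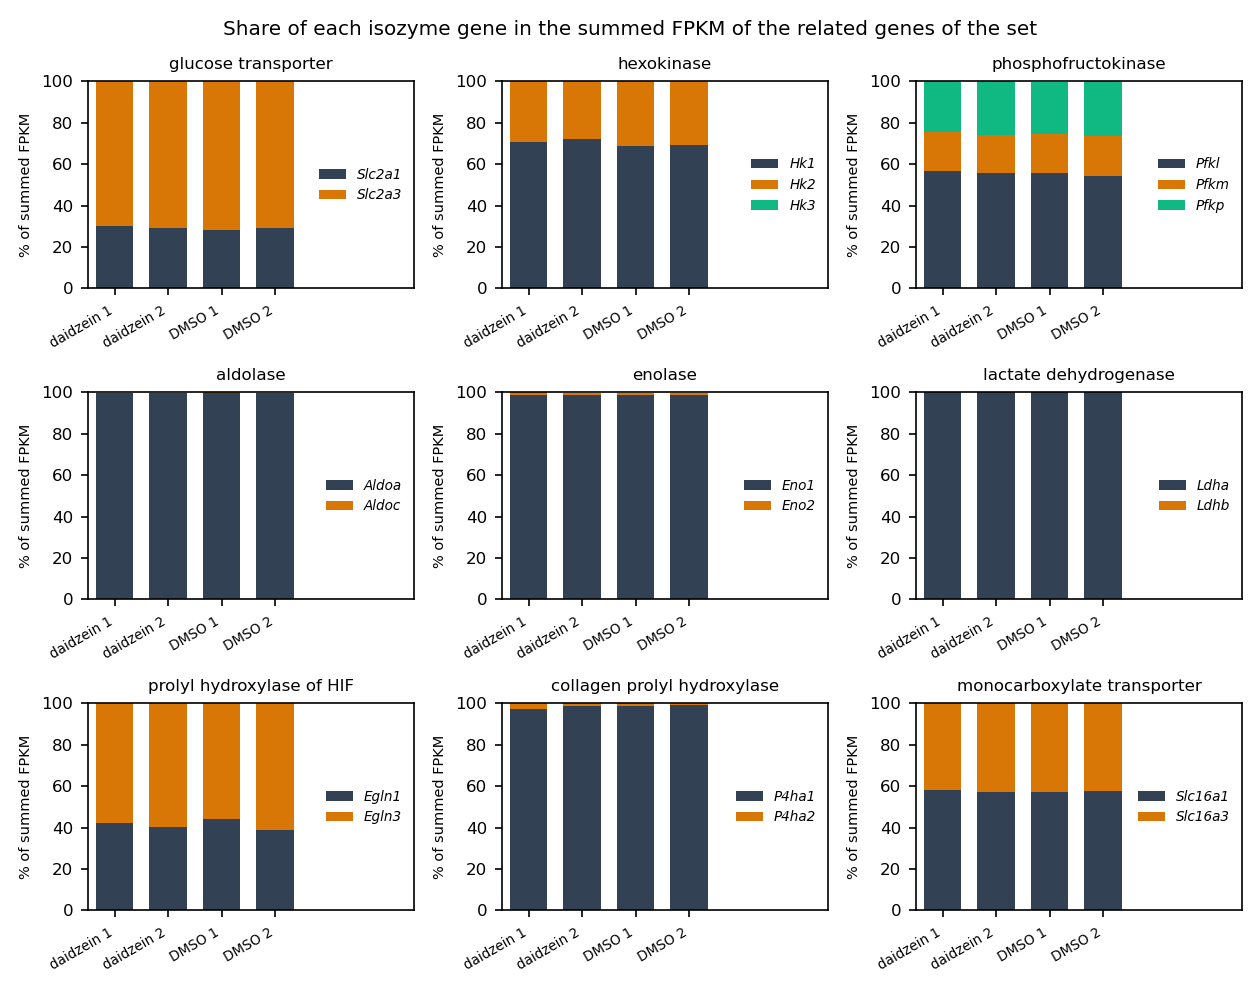
Stacked bars give the share of each isozyme gene in the summed FPKM of the related genes of the set, in percent, for 2 daidzein and 2 DMSO libraries in each of 9 groups of genes. Among these genes the leading one was the same in all 4 libraries, and shares moved by at most 2.19 percentage points between the group means.

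The question of the comparison was which of these transcripts differ with daidzein. None passed. Of the 35 genes, 31 had enough reads to test, 3 (Hk3, Ldhb and Adm) had 0 reads and P4ha2 was under the filter on low counts, as was the second Aldoa row, which had 2 reads in DMSO replicate 1 and 0 elsewhere. By the edgeR quasi-likelihood test, adjusted over 11700 genes by the method of Benjamini and Hochberg, 0 of the 31 rose and 0 fell at an adjusted p under 0.05, and each had an adjusted p of 1.00. Over all genes tested 0.0171% passed, all of them lower with daidzein. At an unadjusted p under 0.05 there was 1 of the 31, Hk2, against 2.91% of all genes. DESeq2 and a limma trend test on log2(FPKM + 1) also called 0 of the 31, with 1 each at an unadjusted p under 0.05, against 81 of all genes by DESeq2 and 461 by limma.

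Hk2 (ENSMUSG00000000628; GRCm38 chromosome 6, 82725025 to 82774454, minus strand) had 25.4 and 23.7 FPKM with daidzein and 28.7 and 27.3 FPKM with DMSO. Both daidzein libraries lay below both DMSO libraries, with means of 24.6 ± 1.22 FPKM with daidzein and 28.0 ± 1.05 FPKM with DMSO (SD, n = 2 each). The fitted fold was 0.877 with a 95% interval of 0.800 to 0.961, at an unadjusted edgeR p of 0.00730 and an adjusted p of 1.00. Its log2 difference of -0.19 was between -0.25 and -0.13 with each library left out in turn. Since the groups did not overlap, leaving 1 library out could hardly change the sign, so the kept sign adds no support.

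Vegfa, the angiogenic growth factor and a classical HIF target, had 9.27 and 9.97 FPKM with daidzein and 11.4 and 10.2 FPKM with DMSO. The groups did not overlap, but by a narrow margin, and the fold was 0.894 (0.789 to 1.01). Leaving out DMSO replicate 1 moved the log2 difference of -0.16 to -0.08, and leaving out DMSO replicate 2 moved it to -0.24. Eno2 had 1.09 and 0.880 FPKM with daidzein and 1.3 and 1.13 FPKM with DMSO, a fold of 0.811 (0.608 to 1.08). It rested on 77 to 99 reads per library, and its log2 difference of -0.30 ranged from -0.46 to -0.14 with a library left out.

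Gapdh had a fold of 0.877 (0.735 to 1.05) on the reads of its own row, and daidzein replicate 1 was the lowest of the 4 libraries. Its log2 difference of -0.19 moved to -0.0037 when daidzein replicate 1 was left out and to -0.41 when daidzein replicate 2 was. With the reads of its copies added, an alternative chosen after seeing the data, the fold was 0.979 (0.908 to 1.05). Eno1 had 88.2 and 80.2 FPKM with daidzein and 89.8 and 81.5 FPKM with DMSO, and a fold of 0.983 (0.899 to 1.08) on its own row and 0.964 (0.889 to 1.05) with its copies.

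Of the 9 genes tested that were grouped as hypoxia genes, which include Hif1a itself, 0 passed the threshold. In 8 of them, or 88.9%, the fitted difference was below 0, against 51.3% of all genes. This share depends on the grouping, since HIF targets grouped by another role are not in it. Among those were Pgk1, with a fold of 1.01, and Hk2, with a fold of 0.877. In the other roles 3 of 4 transporters, 13 of 16 glycolytic genes and 1 of 2 pyruvate genes were below 0. The following values are those of the 9 genes. Their median log2 difference was -0.096, against -0.0027 over all genes. The daidzein libraries lay below both DMSO libraries in CPM for 3 of the 9, or 33.3%, against 14.9% of all genes. Hif1a, the oxygen-regulated HIF subunit, had 14.2 and 15.8 FPKM with daidzein and 14.1 and 15.5 FPKM with DMSO. The fold was 1.02 (0.916 to 1.13), and replicate 2 was the higher library in both groups. Egln1 had a fold of 0.936 (0.838 to 1.04) and Egln3 of 0.946 (0.856 to 1.05). The Egln1 log2 difference of -0.10 was 0.006 without DMSO replicate 1. Ankrd37, an ankyrin repeat gene induced by HIF, had 1.29 and 0.880 FPKM with daidzein and 1.6 and 1.25 FPKM with DMSO, with a fold of 0.756 (0.471 to 1.21) on 25 to 40 reads. Car9, the membrane carbonic anhydrase used as a hypoxia marker, was barely expressed at 0.660 to 1.09 FPKM, and Adm, the vasodilator peptide adrenomedullin, had 0 reads in every library. Bnip3, a mitophagy receptor, stood at 23.1 to 24.6 FPKM with a fold of 0.984 (0.882 to 1.10). Ndrg1, a stress-responsive gene, stood at 1.82 to 2.20 FPKM and its groups did not overlap, with a fold of 0.896 (0.741 to 1.08). P4ha1 had 5.43 and 5.30 FPKM with daidzein and 6.07 and 5.30 FPKM with DMSO, a fold of 0.945 (0.808 to 1.10).

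The abundant enzymes were measured more tightly. Ldha had a fold of 0.983 (0.914 to 1.06), Pkm of 0.965 (0.895 to 1.04) and Aldoa of 0.967 (0.897 to 1.04). The transporter gene Slc2a1, at a lower level and with a wider interval, had a fold of 1.03 (0.928 to 1.14). None of these 4 intervals reached below 0.895 or above 1.14. Pdk1, a kinase that inhibits pyruvate dehydrogenase and so the conversion of pyruvate to acetyl-CoA, had 22.6 and 21.9 FPKM with daidzein and 22.4 and 20.8 FPKM with DMSO, and a fold of 1.03 (0.944 to 1.13). Hk1 had 60.9 and 61.3 FPKM with daidzein and 63.4 and 62.1 FPKM with DMSO, groups that did not overlap at a fold of 0.974 (0.904 to 1.05).

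**Figure D4:**
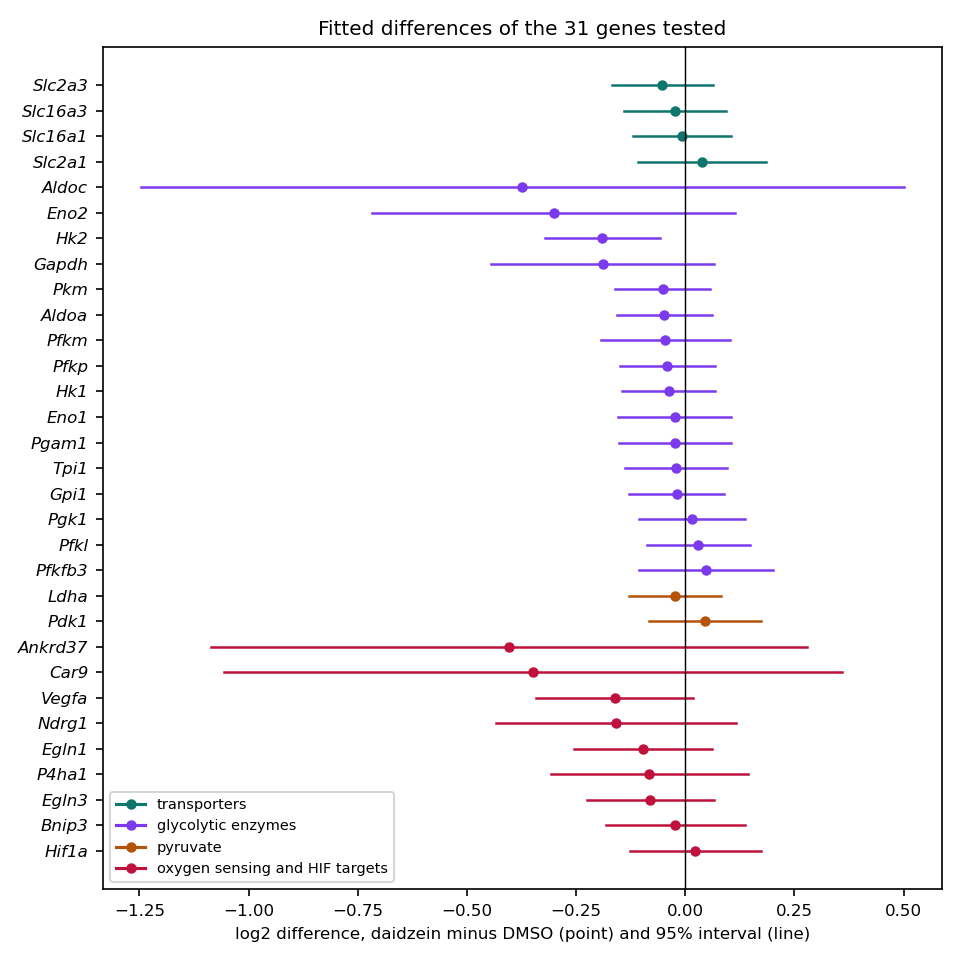
Points are fitted log2 differences, daidzein minus DMSO, of the 31 genes tested, and lines their 95% intervals, coloured by role. Of the 31 points 25 lie below 0, and only the interval of Hk2 lies wholly on 1 side of it.

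As a list, 25 of the 31 genes had a fitted difference below 0, or 80.6%, against 51.3% of all genes tested, and 6 were above 0. The median log2 difference was -0.04, against -0.0027 over all genes. By role, 3 of 4 transporters, 13 of 16 glycolytic genes, 1 of 2 pyruvate genes and 8 of 9 hypoxia genes were below 0. In TMM-scaled CPM the 2 daidzein libraries lay below both DMSO libraries in 7 of the 31, or 22.6%, against 14.9% of all genes. These were Hk1, Hk2, Pfkp, Eno2, Egln3, Vegfa and Ndrg1. In 0 of the 31 they lay above in CPM, against 14.6% of all genes. In FPKM, which has no TMM factor, the groups of Egln3 overlapped and Slc2a1 lay higher in both daidzein libraries, so these 2 depend on the scale. This lean is a description of genes that passed a filter, with no test.

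The lean was smaller without 1 library. Relative to the mean of the 4 libraries, 15 of the 31 genes were above it in daidzein replicate 1, 6 in daidzein replicate 2, 25 in DMSO replicate 1 and 13 in DMSO replicate 2. Over all genes tested 50.2% to 51.2% were above it in each library. Thus for these genes DMSO replicate 1 was the high library and daidzein replicate 2 the low one, while daidzein replicate 1 and DMSO replicate 2 were alike. Without DMSO replicate 1, 17 of the 31 genes were below 0 and their median was -0.0023. With any other library left out, 22 to 26 were below 0, with medians of -0.06 to -0.04. Of all genes tested, 49.5% to 50.8% were below 0 in these fits with a library left out. The median of the 31 does not describe each role. Without DMSO replicate 1, the hypoxia genes Car9, Ankrd37, Ndrg1 and Egln3 had log2 differences of -0.65, -0.21, -0.14 and -0.13. Vegfa, Bnip3 and Hif1a then had -0.08, -0.06 and -0.04, and Egln1 and P4ha1 had 0.006 and 0.02. Car9 and Ankrd37 rest on few reads. Over all tested genes the difference also followed GC content, with a Spearman correlation of -0.21 across genes, which share the libraries. With the trend on GC content removed, 23 of the 31 were below 0 with a median of -0.02, against 47.0% of all genes.

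**Figure D5:**
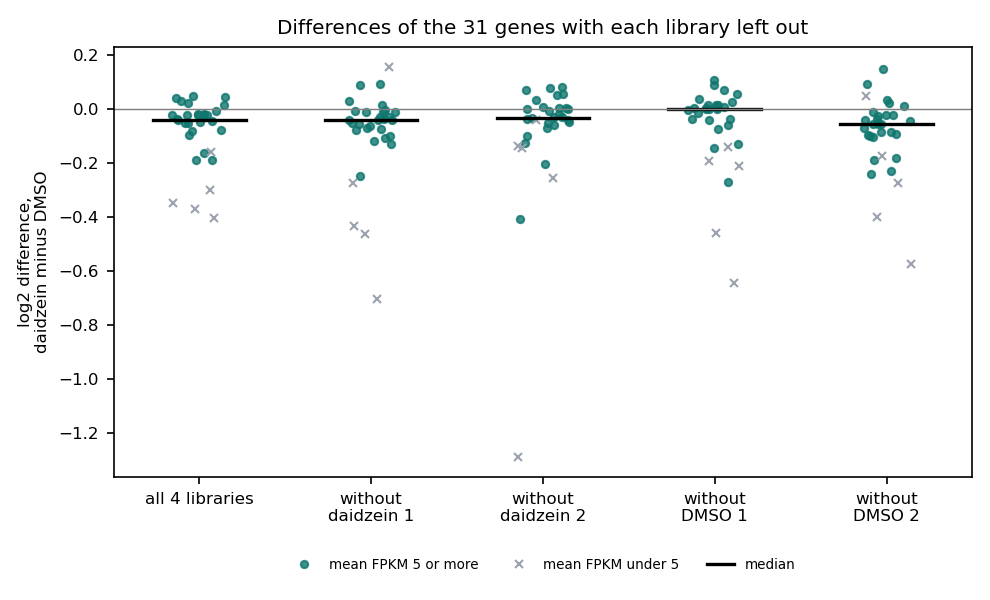
Each point is the fitted log2 difference of 1 of the 31 genes, daidzein minus DMSO, with all 4 libraries and with each library left out, circles for genes with a mean of at least 5 FPKM and crosses for lower ones. The median (black line) lies below 0 with all libraries, at -0.04, and next to 0, at -0.0023, without DMSO replicate 1.

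Related genes outside the set gave no calls either. Of 93 further genes of pyruvate handling, the pentose phosphate and glycogen routes, HIF control and hypoxia response, 63 were tested, 15 had 0 reads and 15 were under the filter. By edgeR 0 rose and 0 fell at an adjusted p under 0.05, with 0 at an unadjusted p under 0.05, and DESeq2 and limma also called 0. Of the 63, 39 were below 0, or 61.9%, against 51.3% of all genes, with a median log2 difference of -0.01. In CPM the daidzein libraries lay below both DMSO libraries for 12 genes, or 19.05%, against 14.9% of all genes, and above for 9, or 14.29%, against 14.6%. The lists differed. Of 22 other hypoxia targets 6 lay below and 1 above, and of 22 genes of glycolysis and pyruvate 4 and 3. Of 15 pentose phosphate and glycogen genes 2 lay below and 3 above, and of 4 HIF subunits and regulators 0 and 2.

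These lists complete the picture of isozyme use. Pklr, the liver and red cell pyruvate kinase, had 0 reads in every library. Epas1, which encodes HIF2A, Hif3a and Arnt2 had 0 reads, so Hif1a with its partner Arnt (6.63 to 7.43 FPKM) was the only HIF alpha subunit detected. Egln2, the remaining HIF prolyl hydroxylase, stood at 26.1 to 31.7 FPKM. It was above Egln3 in replicate 1 of both groups and below it in replicate 2 of both. Of the other pyruvate dehydrogenase kinases Pdk2 and Pdk4 had 0 reads and Pdk3 had 23.7 to 26.4 FPKM, above Pdk1 in each library. Bsg, the chaperone of MCT1 and MCT4, stood at 302 to 330 FPKM. Fbp2, the muscle form of fructose 1,6-bisphosphatase, which runs against phosphofructokinase, stood at 398 to 434 FPKM, in a range that overlapped that of Aldoa. The last 2 were picked after their values were seen.

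The genes with the smallest p-values in these lists had fitted differences in both directions. Kdm3a, a histone demethylase induced by HIF, had 3.88 and 4.07 FPKM with daidzein and 4.38 and 4.57 FPKM with DMSO, a fold of 0.888 (0.782 to 1.01). Rpe, an epimerase of the pentose phosphate route, had 25.8 and 26.0 FPKM with daidzein and 23.0 and 24.2 FPKM with DMSO, a fold of 1.10 (0.994 to 1.21). Slc2a8, the intracellular glucose transporter GLUT8, had 0.960 and 0.980 FPKM with daidzein and 1.21 and 1.37 FPKM with DMSO, a fold of 0.752 (0.541 to 1.04). Ugp2, which makes UDP-glucose for glycogen, had a fold of 1.12 (0.979 to 1.28), Bnip3l, a mitophagy receptor related to Bnip3, of 1.09 (0.967 to 1.22) and Hif1an, the asparagine hydroxylase that restrains HIF, of 1.08 (0.963 to 1.21). Pdp1, a phosphatase that activates pyruvate dehydrogenase, had a fold of 1.17 (0.948 to 1.43), and Pfkfb1, which makes and degrades fructose 2,6-bisphosphate, of 1.24 (0.915 to 1.68). The groups of these 8 genes did not overlap in CPM, and none had an adjusted edgeR p below 1.00. Over all genes the daidzein libraries lay below both DMSO libraries in 14.9% and above in 14.6%. Picking genes by small p favours groups that do not overlap, so this adds no support.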

How the data were processed

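The labels describe 4 libraries of total RNA extracted with Trizol and prepared by Illumina protocols. HISAT2 2.0.1, HTSeq 0.6.1 and DESeq2 are named, with the build mm9, per the submitters' processing notes, which give no role or order. The coordinates are those of GRCm38: 99.61% of 55141 rows that matched GENCODE M21 by identifier had the same start. The strand setting is not given in the sources used here, so overlapping antisense genes cannot be told apart.

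The deposited counts are whole reads per gene, not normalized. The deposited FPKM values equal the count over the deposited exonic gene length and the library total within 0.01 for 100% of 65326 values with a read. Counts were used for all tests and FPKM for levels and shares.

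The comparison of daidzein with DMSO used edgeR 4.0.16 in R 4.3.3, its quasi-likelihood F test with TMM factors, the default filterByExpr and a threshold of 0.05 on p adjusted by Benjamini-Hochberg, with 95% intervals from the same model. The steps were tested on simulated data, but no result is given here for the fold that 2 against 2 libraries can detect. Alternatives used DESeq2 1.42.0 and limma 3.58.1. Copies were searched with blastn 2.17.0. Members and lists were chosen with earlier results of these data known. Genes with values in every library are the leading isozymes, the 6 members of smallest p, members whose groups do not overlap at a fold beyond 1.15, and Vegfa, Hif1a, Ldha, Slc2a1 and Pdk1, and of the wider lists up to 3 genes each by p. Any further gene was picked with its values in view. No pair of libraries agreed within sampling noise, with a chi-square per degree of freedom of 2.23 to 4.81.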

Additional observations from a re-analysis of the deposited data

How the results depend on the processing

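The count of 0 changed genes among the 31, and among the 93 related genes, held under every alternative run: DESeq2, its size factors in edgeR, no filter on low counts, a stricter filter of 5 CPM in 2 libraries, limma on FPKM, each library left out, the replicate number as a block, and the reads of copies added, the last chosen after seeing the data. The count over all genes, 2, was 1 by DESeq2, 11 without a filter, 1 with the stricter filter, 0 by limma with 461 at an unadjusted p under 0.05, and 4 to 17 when each library was omitted in turn (11 and 17 for daidzein replicates 1 and 2, 4 and 12 for DMSO replicates 1 and 2), which takes the single one remaining in a group to vary as the pair does; the cause was not tested. With the replicate block it was 27, and 0 of the 31 passed, with Hk2 nearest at an edgeR adjusted p of 0.0545; 3 were then at an unadjusted p under 0.05, as were 748 of all genes. No label gives same-numbered libraries a shared culture or day, and their deviations correlated at 0.092 over 11700 genes, so pairing was not assumed. In a chi-square test of their counts the same-numbered libraries were nevertheless the closest, at 3.51 and 2.23 per degree of freedom, against 4.38 within daidzein and 4.17 within DMSO.

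Of 338 recomputed differences of the 31 genes, 24 had another sign, all with a library left out and 12 of them without DMSO replicate 1, and none was past the threshold before or after. As shares of counts in place of FPKM, which favours long genes, Slc2a3 held 83.3%, Hk1 77.1%, Pfkl 47.9%, Eno1 98.9%, Egln3 51.1%, P4ha1 97.8% and Slc16a1 53.1% of the sum over the related genes of the set. With the FPKM of copies added Eno1 held 99.9% of the sum with Eno2, which leaves out Eno3. The median difference with the replicate block was -0.04, and -0.02 with the block and the GC trend removed. Depth limits the rarest genes: Aldoc, with 11 to 33 reads per library, had a fold interval of 0.421 to 1.42.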
